A study of Homo sapiens with 8 samples.

Results

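Expression of 9 genes of the MHC class I pathway was followed across 8 RNA libraries of the human cell line KCL-22, which derives from blast-crisis chronic myeloid leukemia and depends on the BCR-ABL fusion kinase. The genes were HLA-B, HLA-C, HLA-E, HLA-F, B2M, TAP1, TAP2, TAPBP and NLRC5. They were chosen by symbol, each had 1 entry in the expression table, and together they make up 9 of 31332 entries with a value in every library. Levels are FPKM, fragment counts scaled to transcript length and library size, so that levels can be set side by side between genes. A mean of at least 1 FPKM was required for testing, which 11843 genes met. Of the 9 genes 8 were tested, and HLA-F, with a mean of 0.548 FPKM, was not.

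All cells came from 1 polyclonal pool tagged with ClonTracer, a library of DNA barcodes that marks the progeny of single cells. The vehicle population (1 library) was grown for 7 days with 0.1% DMSO. Another 3 populations were selected for resistance, each sequenced as 1 library. The imatinib population had spent 27 days at 2.5 µM, the nilotinib population 27 days at 0.3 µM and the GNF-2 population 21 days at 2.5 µM of the compound. Of the compounds, imatinib and nilotinib occupy the catalytic site of ABL, whereas GNF-2 acts allosterically from a separate pocket. Clones 1, 2 and 4 were sorted as single cells from cells that had become resistant to GNF-2, with no exposure to catalytic inhibitors. Clones 1 and 2 are labelled as resistant to GNF-2, and Clone 4 as resistant to imatinib, nilotinib and GNF-2. Clone 3 was sorted from the imatinib-resistant population, without exposure to allosteric inhibitors, and is labelled as resistant to imatinib and nilotinib. By these labels the catalytic-resistant group held 3 libraries (imatinib population, nilotinib population, Clone 3), the GNF-2-resistant group held 3 (GNF-2 population, Clones 1 and 2), and vehicle and Clone 4 stood alone. Each clone is 1 library of 1 expanded cell, and each population is 1 library of mixed clones, so no condition was sequenced more than once. Nothing in the labels says whether libraries within a group were cultured separately, so p-values measure only the spread between these libraries.

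Depth is not given with the values, and a rough estimate from intronless genes put it at 19000000 (GNF-2 population) to 40000000 (Clone 1) fragments. BCR and ABL1 were read at 58.8 to 110.5 FPKM in every library. Of the myeloid markers, GATA2 was 145 to 287 FPKM and CD33 0.157 to 3.35 FPKM, and MPO and KIT stayed below 1. Of markers of other cell types, MS4A1 (B cell), C1QA and C1QB (macrophage) and DCN (fibroblast) were listed at 0 in all 8 libraries, and CD3E, GNLY and KLRD1 stayed below 0.3. CD79A, NKG7 and CD68 were present at 5.57 to 423 FPKM, CD79B at 18.3 to 53.3 FPKM and NCAM1 (NK cell) at 29.2 to 120 FPKM. CD14 was 0.285 to 34.6 FPKM and CSF1R 2.09 to 6.32 FPKM. Of the fibroblast list, PDGFRB reached 5.04 FPKM in Clone 4 and COL1A2 4.61 FPKM in Clone 2. CD3D ranged from 0 in Clone 2 to 32.0 FPKM in the vehicle population. The macrophage list summed to 8.71 FPKM in Clone 2, 16.7 in Clone 1, 23.7 in Clone 4 and 44.9 to 75.4 elsewhere. The part of these markers in the results below was not tested.

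MHC class I molecules show fragments of a cell's own proteins to cytotoxic T cells. Each consists of a heavy chain, beta-2 microglobulin and a peptide. Proteasomes cut the peptide in the cytosol, the TAP transporter carries it into the endoplasmic reticulum and tapasin helps to load it. NLRC5 is a transcriptional coactivator of most of these genes and works through factors bound at their promoters, and interferons raise the whole set. In leukemia, the amount of class I on the cell governs recognition by T cells and, inversely, by natural killer cells.

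The promoters of these genes are known for a shared arrangement of factor sites, so the reference sequences are shown for HLA-B, HLA-C, B2M and TAP1, which stood high in Clones 2 and 4, and for HLA-F, the least abundant. They are RefSeq sequences on GRCh38.p14, given 5′ to 3′ on the gene's strand for the 250 bases before the annotated start. Capitals mark matches on either strand to the interferon regulatory factor core AANNGAAA, to TGACG of the cyclic AMP element, to the CCAAT box ATTGG and to the NF-kB site.

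HLA-B, chr6:31357180-31357429, minus strand: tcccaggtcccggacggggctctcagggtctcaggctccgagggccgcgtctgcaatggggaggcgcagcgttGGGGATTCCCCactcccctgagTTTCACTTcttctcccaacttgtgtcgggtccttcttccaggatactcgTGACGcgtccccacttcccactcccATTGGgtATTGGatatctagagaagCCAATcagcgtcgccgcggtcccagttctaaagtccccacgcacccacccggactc

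HLA-C, chr6:31272093-31272342, minus strand: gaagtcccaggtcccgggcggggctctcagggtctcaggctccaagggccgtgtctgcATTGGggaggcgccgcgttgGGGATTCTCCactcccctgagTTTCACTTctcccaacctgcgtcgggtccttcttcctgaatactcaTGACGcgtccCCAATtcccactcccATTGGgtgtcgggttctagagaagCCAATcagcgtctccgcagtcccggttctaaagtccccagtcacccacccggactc

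HLA-F, chr6:29723184-29723433, plus strand: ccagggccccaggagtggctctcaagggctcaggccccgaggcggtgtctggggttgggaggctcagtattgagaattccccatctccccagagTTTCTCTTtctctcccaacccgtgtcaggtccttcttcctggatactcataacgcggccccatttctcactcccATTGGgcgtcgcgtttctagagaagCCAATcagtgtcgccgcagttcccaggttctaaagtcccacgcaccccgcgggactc

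B2M, chr15:44711267-44711516, plus strand: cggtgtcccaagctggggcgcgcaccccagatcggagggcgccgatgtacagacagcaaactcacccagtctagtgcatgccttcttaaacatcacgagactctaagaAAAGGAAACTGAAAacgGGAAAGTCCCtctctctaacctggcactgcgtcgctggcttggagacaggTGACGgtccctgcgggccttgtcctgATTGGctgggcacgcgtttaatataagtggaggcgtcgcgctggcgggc

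TAP1, chr6:32853705-32853954, minus strand: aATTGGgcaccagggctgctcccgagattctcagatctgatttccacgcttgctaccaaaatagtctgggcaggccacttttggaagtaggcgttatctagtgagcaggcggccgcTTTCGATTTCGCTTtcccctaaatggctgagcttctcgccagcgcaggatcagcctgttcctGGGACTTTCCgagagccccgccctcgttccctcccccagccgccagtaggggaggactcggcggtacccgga

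Matches were counted over windows of 300 bases, which add the 50 bases after the start, and overlapping matches were allowed. The reference table held 8 windows for 7 of the 9 genes, with 2 for TAP1. The interferon regulatory factor core occurred in 7 of these 8 windows, against 22.8% of 35116 promoters of the same length. The NF-kB site occurred in 5 of 8 (11.3% of all promoters), the CCAAT box in 5 of 8 (34.6%) and the cyclic AMP element letters in 4 of 8 (24.6%). HLA-B and HLA-C windows were 88.5% identical and each held all 4 motifs. HLA-F, 79.7% identical to HLA-B, kept the interferon regulatory factor core and CCAAT boxes, and the letters of the other motifs were not in its window. A match is a description of the reference sequence and says nothing about binding in these cells.

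**Figure D1:**
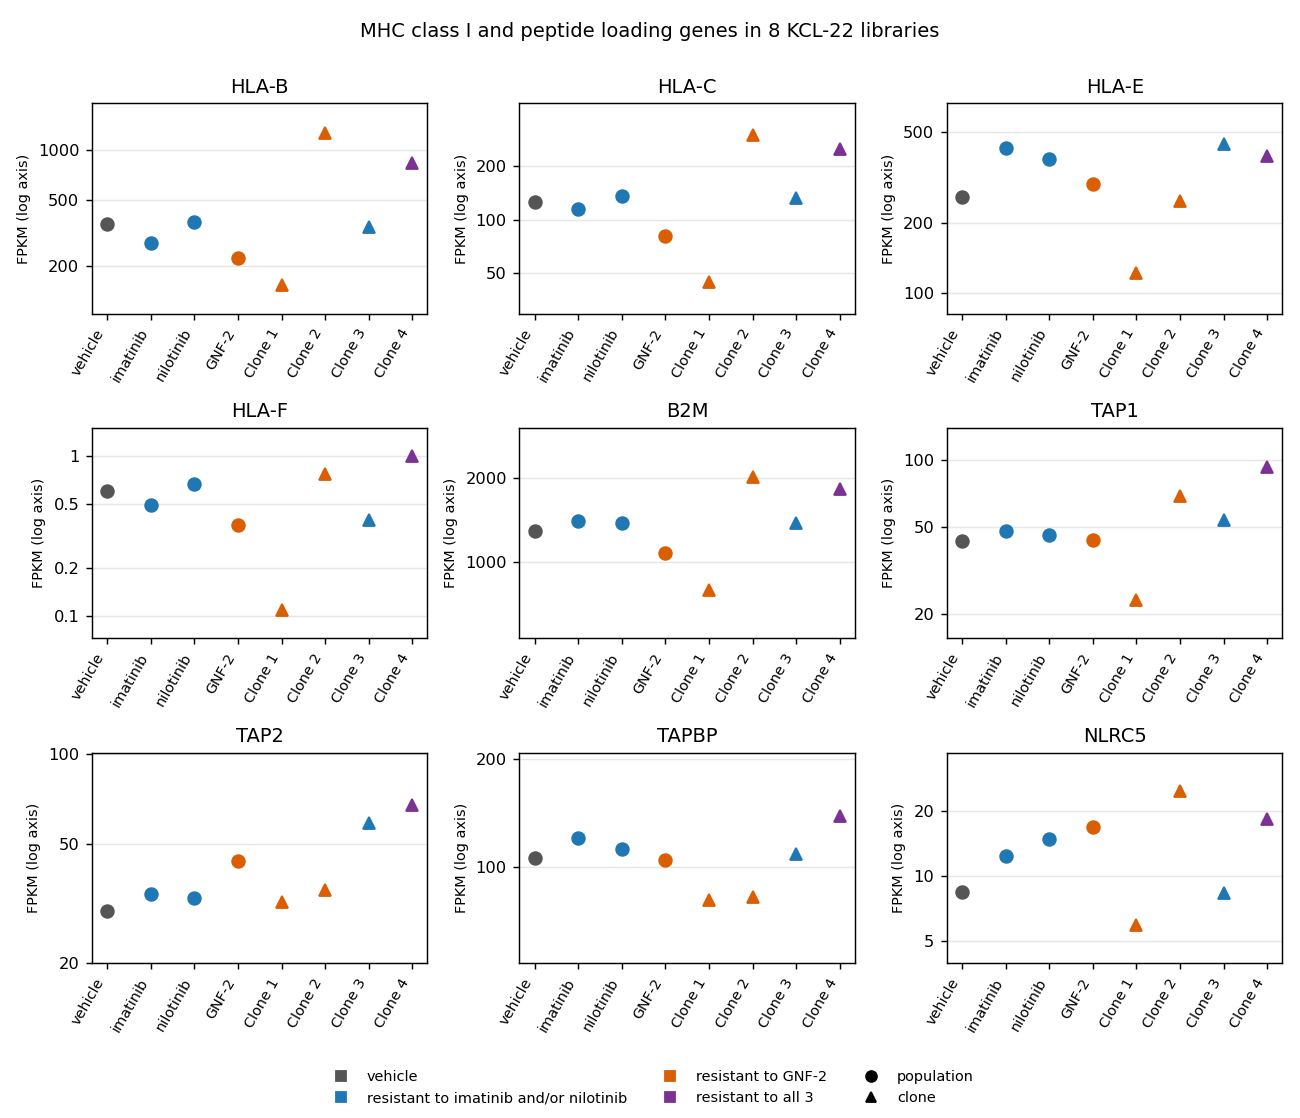
FPKM on a log axis for each of the 9 genes in the 8 libraries; circles are populations, triangles are clones, each point is 1 library, and color gives the resistance on the label. Clone 1 is the lowest point in every panel except TAP2, and the highest point is a clone in all 9.

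The classical heavy chain HLA-B, which presents peptides to cytotoxic T cells, varied more than any other tested gene of the set. HLA-B was 363 FPKM in the vehicle, 278 in the imatinib, 369.7 in the nilotinib and 224 in the GNF-2 population, and 155 in Clone 1, 1281 in Clone 2, 344 in Clone 3 and 836 in Clone 4. Clones 2 and 4 stood above all 4 populations, Clone 1 stood below them, and Clone 3 lay within their range. The highest library held 8.24 times the lowest, whereas the 4 populations spanned 1.65 times.

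HLA-C, the second classical heavy chain of the set and a main ligand of killer cell immunoglobulin-like receptors, was less abundant. HLA-C was 126 FPKM in the vehicle, 115 in the imatinib, 136 in the nilotinib and 80.8 in the GNF-2 population, and 44.6 in Clone 1, 297 in Clone 2, 133 in Clone 3 and 246 in Clone 4. Its order of libraries matched that of HLA-B except that Clone 3 and the vehicle population changed places. Across the 8 libraries the log2 levels of HLA-B and HLA-C correlated with r = 0.97 (n = 8), a description only, since all libraries share 1 line and 1 processing. The GRCh37 entry of HLA-B (chromosome 6, 31238849 to 31324989) overlaps that of HLA-C (31236525 to 31239913), and 2.2% of 50-base stretches of the HLA-B transcript and 3.72% of those of HLA-C recur exactly in another of the 4 heavy chains of the set. How the counting divided such reads is not stated by any source used here, so the split between heavy chains is uncertain.

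HLA-B was above HLA-C in every library. The HLA-B to HLA-C ratio of FPKM was 2.88 in the vehicle population, 2.42 under imatinib, 2.73 under nilotinib and 2.78 under GNF-2. It was 3.49 in Clone 1, 4.31 in Clone 2, 2.597 in Clone 3 and 3.39 in Clone 4. Clone 3 lay within the range of the populations, and the other 3 clones lay above it.

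HLA-E, a nonclassical heavy chain that presents leader peptides of other class I chains to the NKG2A receptor of natural killer cells, followed another order. HLA-E was 259.9 FPKM in the vehicle, 426 in the imatinib, 379.6 in the nilotinib and 297 in the GNF-2 population, and 122 in Clone 1, 249 in Clone 2, 442 in Clone 3 and 392 in Clone 4. The 3 catalytic-resistant libraries and Clone 4 were the 4 highest, and Clone 1 was again the lowest. Clone 2, the highest library for HLA-B, was second lowest for HLA-E. The correlation of log2 levels of HLA-E with HLA-B was 0.32 and with HLA-C 0.54 (n = 8). HLA-E spans positions 30457182 to 30461982 of chromosome 6 in GRCh37.

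HLA-F, a nonclassical heavy chain of low abundance, was near the limit of these data. HLA-F was 0.599 FPKM in the vehicle, 0.489 in the imatinib, 0.663 in the nilotinib and 0.369 in the GNF-2 population, and 0.109 in Clone 1, 0.769 in Clone 2, 0.397 in Clone 3 and 0.989 in Clone 4. Clones 2 and 4 were the highest and Clone 1 the lowest, as for HLA-B. At the estimated depth, 1 FPKM over a transcript of 2 kilobases stands for about 38 fragments in the GNF-2 population and 80 in Clone 1, so each HLA-F value rests on few fragments.

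B2M encodes beta-2 microglobulin, the invariant light chain of class I molecules. B2M was the most abundant of the 9 genes, at 1284 FPKM in the vehicle, 1402 in the imatinib, 1376 in the nilotinib and 1074 in the GNF-2 population, and 792 in Clone 1, 2020 in Clone 2, 1377 in Clone 3 and 1832 in Clone 4. Clones 2 and 4 were above every population and Clone 1 below every population, the pattern of HLA-B and HLA-C over a narrower span of 2.55 times. The log2 levels of B2M correlated with those of HLA-C at r = 0.99 and with those of HLA-B at r = 0.94 (n = 8). Because the heavy chains varied more than the light chain, B2M was 2.46 times the summed FPKM of HLA-B, HLA-C, HLA-E and HLA-F in Clone 1 and 1.10 times in Clone 2. In the other 6 libraries this ratio was 1.24 to 1.78.

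TAP1 and TAP2 are the subunits of the transporter that brings peptides into the endoplasmic reticulum. TAP1 was 42.9 FPKM in the vehicle, 47.8 in the imatinib, 45.8 in the nilotinib and 43.7 in the GNF-2 population, and 23.3 in Clone 1, 68.7 in Clone 2, 53.4 in Clone 3 and 93.5 in Clone 4. The 4 populations were within 1.11 times of each other, whereas the clones spanned 4.01 times. TAP2 was 29.96 FPKM in the vehicle, 34.0 in the imatinib, 33.1 in the nilotinib and 44.0 in the GNF-2 population, and 32.1 in Clone 1, 35.2 in Clone 2, 58.9 in Clone 3 and 67.5 in Clone 4. Clones 3 and 4 were the highest for TAP2, Clone 2 was close to the imatinib population, and vehicle rather than Clone 1 was the lowest. The ratio of TAP1 to TAP2 ranged from 0.727 in Clone 1 to 1.95 in Clone 2, and the ratio was 0.907 in Clone 3 and 0.993 to 1.43 in the other 5 libraries.

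TAPBP encodes tapasin, which bridges TAP and the empty class I molecule. TAPBP was 106 FPKM in the vehicle, 121 in the imatinib, 113 in the nilotinib and 105 in the GNF-2 population, and 81.5 in Clone 1, 82.8 in Clone 2, 109 in Clone 3 and 139 in Clone 4. Tapasin had the narrowest span of the set, 1.70 times. Clones 1 and 2, far apart for HLA-B, were side by side at the bottom for TAPBP, and Clone 4 was at the top.

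NLRC5, the class I transactivator, was the least abundant of the 8 tested genes of the set. NLRC5 was 8.41 FPKM in the vehicle, 12.4 in the imatinib, 14.8 in the nilotinib and 16.9 in the GNF-2 population, and 5.93 in Clone 1, 24.8 in Clone 2, 8.36 in Clone 3 and 18.3 in Clone 4. Clone 2 was the highest and Clone 1 the lowest, as for HLA-B, HLA-C and B2M, and all 3 resistant populations were above vehicle. Clone 3 was level with vehicle although its HLA-B, B2M and TAP1 were within or above the populations' range. The log2 levels of NLRC5 correlated with those of HLA-B at r = 0.74 (n = 8).

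Across the set, Clone 1 was the lowest library for 8 of the 9 genes, and no population was the highest library for any of them. Clone 2 was the highest for HLA-B, HLA-C, B2M and NLRC5, Clone 4 for HLA-F, TAP1, TAP2 and TAPBP, and Clone 3 for HLA-E. Over all genes tested, Clone 1 was the lowest library for 15.0%, Clone 2 the highest for 16.3% and Clone 4 the highest for 18.7%. The 9 genes together made up 0.217% of the summed FPKM in Clone 1, 0.815% in Clone 2, 0.734% in Clone 4 and 0.370% to 0.476% in the other 5 libraries. Clone 1 also had the highest depth estimate and the highest FPKM sum, 579873 against 493644 to 553459 elsewhere, and the part of these in its low values was not tested. With 1 library per condition, neighbours in these orders have no spread of their own to be judged against, and in bulk RNA fewer cells that express a gene and less RNA per cell cannot be told apart.

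Resistant populations were compared with vehicle to ask whether outgrowth under each inhibitor came with a shift in class I transcripts. Single libraries were called apart at 2-fold or more with at least 5 FPKM in the higher one, with no test. The imatinib population had 0 of the 9 genes apart, against 2.99% of all genes, and its largest difference was HLA-E at 1.64-fold higher. The nilotinib population had 0 of 9 apart (4.58% of all genes), with NLRC5 at 1.76-fold and HLA-E at 1.46-fold higher. The GNF-2 population had NLRC5 at 2.00-fold higher (7.58% of all genes apart), a call that median-ratio rescaling of the libraries ended. In the GNF-2 population HLA-B was 1.62-fold, HLA-C 1.56-fold and B2M 1.20-fold lower than vehicle, and HLA-E was 1.14-fold and TAP2 1.47-fold higher. Doses and times differed between the 3 compounds, so these values stand side by side and were not compared with each other. Vehicle was grown for 7 days and the resistant populations for 21 to 27 days. Selection under an inhibitor and longer culture therefore cannot be told apart in these ratios.

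Clones were compared with the population each was sorted from, to ask how far a single cell's progeny departs from the mixture. All 9 genes were lower in Clone 1 than in the GNF-2 population, and 2 of them passed the rule, NLRC5 at 2.84-fold and HLA-E at 2.44-fold lower (7.87% of all genes were called lower). TAP1 was 1.87-fold, HLA-C 1.81-fold, HLA-B 1.44-fold and B2M 1.36-fold lower there. In Clone 2, HLA-B was 5.71-fold and HLA-C 3.68-fold higher than in the same population (3.74% of all genes were called higher). B2M was 1.88-fold and TAP1 1.57-fold higher in Clone 2, while HLA-E was 1.19-fold, TAP2 1.25-fold and TAPBP 1.26-fold lower.

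In Clone 4 all 9 genes were higher than in the GNF-2 population, and 3 passed the rule, HLA-B at 3.72-fold, HLA-C at 3.05-fold and TAP1 at 2.14-fold (3.45% of all genes were called higher). TAP2 was 1.54-fold, B2M 1.71-fold and NLRC5 1.09-fold higher in Clone 4. Clone 3 had 0 of 9 genes apart from the imatinib population (10.8% of all genes), with TAP2 1.73-fold higher and NLRC5 1.48-fold lower at the extremes. Median log2 ratios of the 8 tested genes on the log2(FPKM + 1) scale were -0.68 in Clone 1, 0.59 in Clone 2, 0.10 in Clone 3 and 0.69 in Clone 4, and those of all genes were -0.13, -0.067, -0.083 and -0.085. The directions for all 9 genes in Clones 1 and 4 were the same after median-ratio rescaling. The 3 clones from the GNF-2 population share that library as their reference, and each has its own values only.

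**Figure D2:**
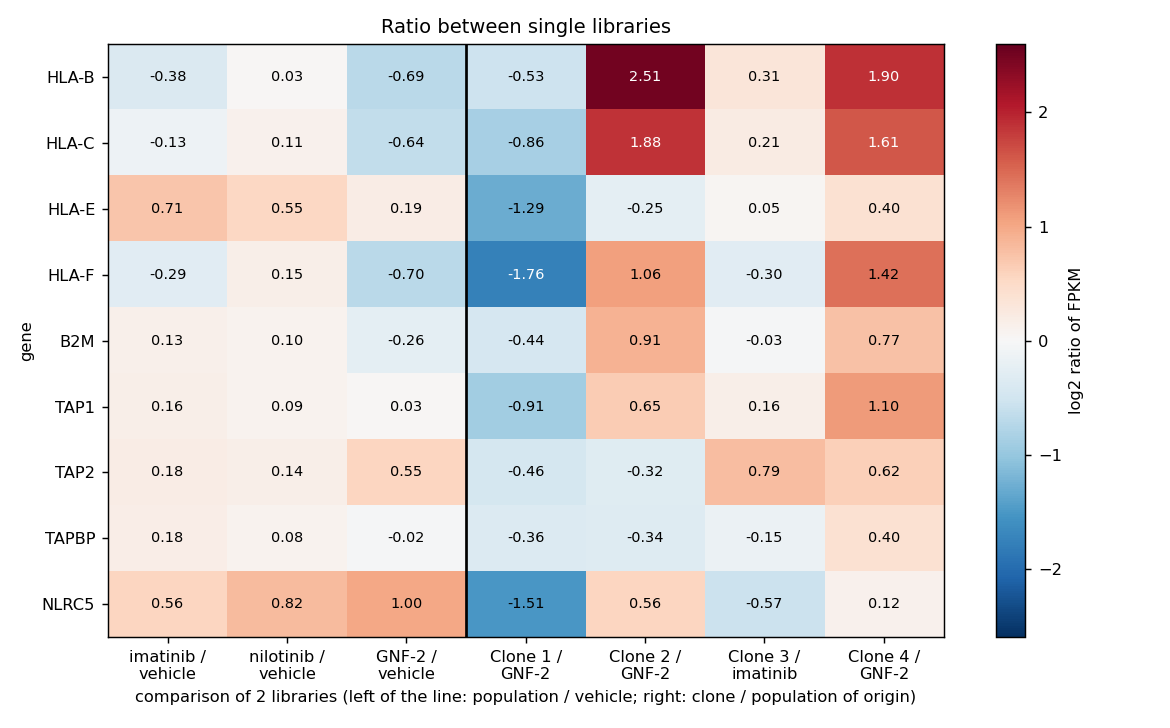
Log2 ratio of FPKM for each gene, left of the line for each resistant population against vehicle and right of it for each clone against its population of origin; each cell compares 2 single libraries. Clone 1 is below 0 and Clone 4 above 0 for all 9 genes, and the largest value is HLA-B in Clone 2 at 2.51.

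The span among clones exceeded the span among populations for all 8 tested genes, as it did for 64.7% of all genes tested. On log2(FPKM + 1), HLA-B ranged over 3.03 in the 4 clones and 0.72 in the 4 populations, and HLA-C over 2.71 and 0.74. TAP1 ranged over 1.96 in clones and 0.15 in populations, NLRC5 over 1.90 and 0.92, HLA-E over 1.85 and 0.71, and B2M over 1.35 and 0.38. TAP2 (1.05 and 0.54) and TAPBP (0.76 and 0.20) had the narrowest spans in clones. The median range of the 8 genes was 1.87 in clones and 0.62 in populations, against 0.58 and 0.46 over all genes tested. A range of at least 1 on the log2(FPKM + 1) scale was found for 7 of 8 genes in clones (23.0% of all genes) and for 0 of 8 in populations (11.7% of all genes). In FPKM itself NLRC5 spanned 2.00 times over the populations, which the added 1 brings to 0.92 on the log2 scale. A range over 4 single libraries carries no test, and a population is a mixture of clones.

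**Figure D3:**
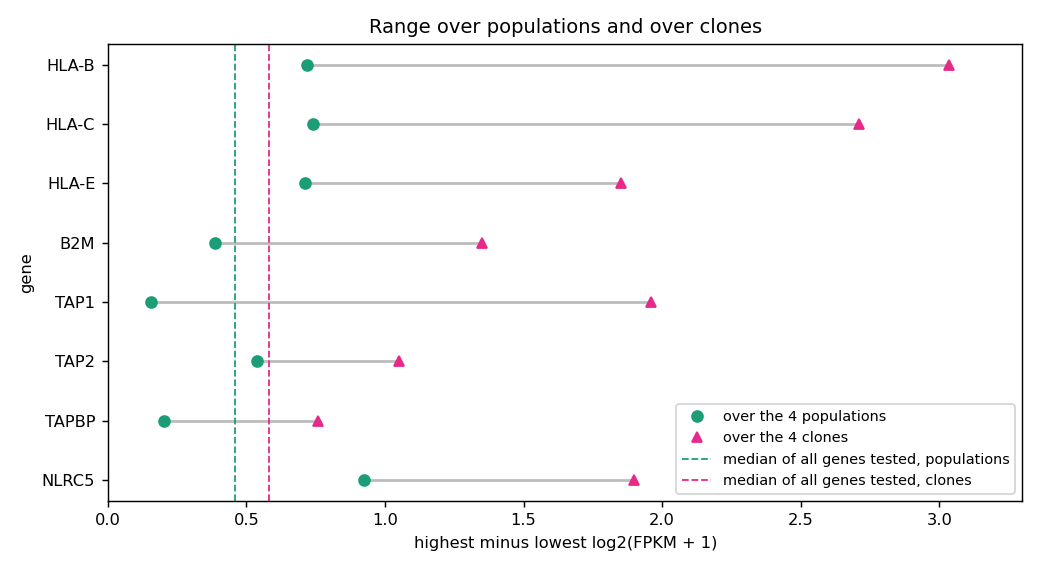
Highest minus lowest log2(FPKM + 1) over the 4 populations (circles) and over the 4 clones (triangles) for the 8 tested genes, with dashed lines at the medians of all genes tested. Each triangle lies right of its circle, from 0.76 for TAPBP to 3.03 for HLA-B.

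The 4 clones as a group were compared with the 3 resistant populations with limma, a linear model over all genes that shares information on their spread. Of the 8 tested genes 0 passed an adjusted p of 0.05, against 7.46% of all genes, and 0 had an unadjusted p under 0.05, against 27.1% of all genes. HLA-B averaged 654 ± 507 FPKM (SD, n = 4) in clones and 291 ± 73.5 (SD, n = 3) in resistant populations. Its log2 difference of 0.78 had a standard error of 0.67, an adjusted p of 0.4964 in limma and a 95% interval of -0.77 to 2.33. Without Clone 2 this difference was 0.32, and without Clone 1 it was 1.33. The other 7 genes differed by -0.43 (HLA-E) to 0.42 (HLA-C), with adjusted p values of 0.5043 to 0.7988 in limma. The HLA-C difference was 0.074 without Clone 2 and 0.98 without Clone 1, and the HLA-E difference was -0.67 without Clone 3 and -0.051 without Clone 1. The labels tie each clone to a population of origin, and a fit of the 4 clones and their 2 populations of origin with origin as a block again passed 0 of 8 genes, with differences of -0.35 (NLRC5) to 0.898 (HLA-B). That fit has 3 residual degrees of freedom and called 11 genes of the whole table in place of 883. The groups overlapped for every gene of the set, where 26.3% of all genes did not overlap, and Clones 1 and 2 were at opposite ends of the clone range for HLA-B, HLA-C, B2M and NLRC5. Over all genes 199 were called higher and 684 lower in clones, a split that moved to 339 and 510 after median-ratio rescaling and to 436 and 491 after quantile normalization.

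GNF-2-resistant libraries were compared with catalytic-resistant libraries to ask whether the kind of inhibitor went with a difference in class I transcripts. Of the 8 tested genes 0 passed an adjusted p of 0.05 in limma, against 0.0338% of all genes, and HLA-E and TAPBP had an unadjusted p under 0.05, against 4.87% of all genes. Clones 1 and 2 were sorted from GNF-2-resistant cells and Clone 3 from the imatinib population, and the fit treated these related libraries as independent. Clones are also a larger share of the GNF-2-resistant group, which bears on the p-values, intervals and overlaps below. HLA-E averaged 223 ± 90.7 FPKM (SD, n = 3) in GNF-2-resistant libraries and 416 ± 32.2 FPKM (SD, n = 3) in catalytic-resistant ones. The log2 difference of HLA-E was -0.99 with a standard error of 0.33, an unadjusted p of 0.02136, an adjusted p of 0.8463 in limma and a 95% interval of -1.78 to -0.20. Each library of the GNF-2-resistant group, at 122, 249 and 297 FPKM, was below each catalytic-resistant library, at 379.6, 426 and 442 FPKM. Clone 4, labelled as resistant to imatinib, nilotinib and GNF-2, was in neither group. At 392 FPKM of HLA-E, Clone 4 was above the nilotinib population. TAPBP averaged 89.7 ± 13.0 against 114 ± 6.12 FPKM (SD, n = 3 each), a log2 difference of -0.35 with a standard error of 0.15, an unadjusted p of 0.04936 and an adjusted p of 0.8463 in limma. Its groups did not overlap either, as was so for 10.9% of all genes. Clone 4, again in neither group, was above every catalytic-resistant library for TAPBP, at 139 FPKM. Over the alternative settings the HLA-E difference ranged from -1.25 to -0.61 with adjusted p values of at least 0.3327, and the TAPBP difference from -0.47 to -0.28 with adjusted p values of at least 0.3655. With clone or population as a covariate, the HLA-E difference was -0.89 and the TAPBP difference -0.28. No fit of this contrast took population of origin into account.

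For the other 6 genes the 2 groups overlapped, and the GNF-2-resistant group had the larger SD for all but TAP2. HLA-B averaged 554 ± 631 FPKM in GNF-2-resistant libraries and 331 ± 47.3 in catalytic-resistant ones (SD, n = 3 each). B2M averaged 1295 ± 643 against 1385 ± 14.6 FPKM, and TAP1 45.2 ± 22.8 against 49.0 ± 3.96 FPKM. TAP2 was the exception, at 37.1 ± 6.17 against 42.0 ± 14.7 FPKM, with Clone 3 above the imatinib and nilotinib populations. The 95% interval for HLA-B, -1.67 to 1.90 on the log2 scale, leaves room for a 2-fold difference either way. Without Clone 2 the HLA-B difference was -0.81 in place of 0.11 on the log2 scale.

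**Figure D4:**
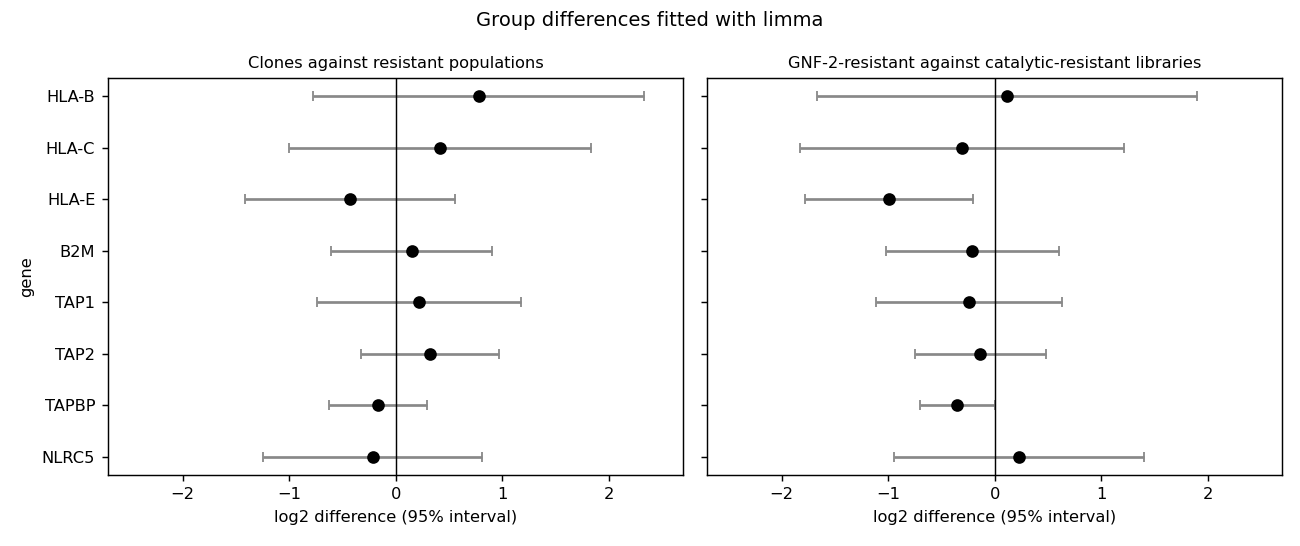
Log2 differences from limma with 95% intervals for the 8 tested genes, left for 4 clones against 3 resistant populations and right for 3 GNF-2-resistant against 3 catalytic-resistant libraries. The intervals of HLA-E and TAPBP in the right panel lie below 0 before adjustment over all genes, and the other 14 intervals include 0.

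Against the single vehicle library, 0 of 8 genes passed in the catalytic-resistant group (0.0338% of all genes called) and 0 of 8 in the GNF-2-resistant group (0.0929% of all genes called), and 0 had an unadjusted p under 0.05 in limma (2.69% and 11.1% of all genes). HLA-E was 0.67 higher on the log2 scale in the catalytic-resistant group, with a standard error of 0.47 and an adjusted p of 1 in limma. NLRC5 was 0.65 higher in the GNF-2-resistant group, with a standard error of 0.69 and an adjusted p of 0.7055 in limma. Clone 1 was below vehicle for NLRC5, and the other GNF-2-resistant libraries were above it. These fits too treated clones and their populations of origin as independent, and vehicle was grown for fewer days than the resistant populations.

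The remaining genes of class I processing and loading, 16 in all, gave 0 calls in any of the 4 contrasts. Their median log2 difference between clones and resistant populations was 0.14, against 0.19 for the 8 tested genes of the set and -0.08 for all genes. PSMB9, an interferon-inducible subunit of the immunoproteasome whose gene lies head to head with TAP1, was 36.7 FPKM under vehicle, 58.3 under imatinib, 51.1 under nilotinib and 29.7 under GNF-2. PSMB9 was 11.3 FPKM in Clone 1, 42.2 in Clone 2, 27.1 in Clone 3 and 39.5 in Clone 4, and so was lowest in Clone 1 like TAP1. PSMB9 differed between clones and resistant populations by -0.71 on the log2 scale (adjusted p = 0.356 in limma). PSMB10, another immunoproteasome subunit, differed by -0.58 (adjusted p = 0.07842), and ERAP2, which trims peptides in the endoplasmic reticulum, by -0.46 (adjusted p = 0.1457 in limma). HLA-G, a nonclassical heavy chain, was listed at 0 in the GNF-2 population and reached 6.65 FPKM in Clone 2. The constitutive proteasome subunits PSMB5, PSMB6 and PSMB7 were 0.40 to 0.45 higher in clones on the log2 scale, and 0 of 3 passed, the lowest adjusted p being 0.05103 in limma.

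Among 17 tested genes of interferon gamma signaling and of the factors that assemble with NLRC5 on class I promoters, 1 was called higher in clones than in resistant populations and 0 lower, against 1.68% and 5.78% of all genes. NFYA, a subunit of the factor that binds the CCAAT box, rose by 0.64 on the log2 scale with a standard error of 0.16 and an adjusted p of 0.04961 in limma. NFYA was 11.4 to 14.4 FPKM in the 3 resistant populations and 16.9 to 23.8 FPKM in the 4 clones, but 14.4 FPKM in vehicle as well. Of 18 alternative settings 12 ended the NFYA call, with adjusted p values up to 0.1731, reached with population of origin as a block. RFX5, RFXAP, RFXANK and CREB1, which belong to the same promoter complex, did not pass. IRF1, an activator of class I promoters, was lowest in Clone 2 at 7.25 FPKM, the library with the most HLA-B.

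Of 24 tested interferon-stimulated genes, 19 were at least 2-fold lower in Clone 1 than in the GNF-2 population (7.87% of all genes) and 13 were at least 2-fold higher in Clone 4 (3.45% of all genes), the clones with all 9 class I genes lower and higher. In Clone 2, with HLA-B 5.71-fold higher, 6 of the 24 were at least 2-fold lower (7.57% of all genes) and 0 higher, and the median log2 ratio was -0.46 against 0.59 for the 8 tested class I genes. The GNF-2 population itself, with HLA-B, HLA-C and B2M below vehicle, had 22 of the 24 higher than vehicle and 7 at least 2-fold higher (4.46% of all genes). The imatinib population also had 22 of the 24 higher than vehicle, 1 of them at least 2-fold, and the nilotinib population had 8 higher. Median log2 ratios to vehicle of the 24 were 0.53 (GNF-2), 0.49 (imatinib) and -0.13 (nilotinib), and those of all genes were 0.12, 0.046 and 0.071. Clone 3 had 5 at least 2-fold lower than the imatinib population (6.99% of all genes) and 1 higher. GBP2, an interferon-induced GTPase, was the single interferon-stimulated gene called between clones and resistant populations, 1 of 24 beside 5.78% of all genes called lower, and it fell by 1.68 on the log2 scale (standard error 0.24, adjusted p = 0.01036 in limma). Leaving out the nilotinib population gave GBP2 an adjusted p of 0.05422 in limma, and population of origin as a block gave 0.06162.

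MHC class II transcripts were almost absent beside this class I expression. Of 10 genes 9 had a mean below 1 FPKM, and CIITA, the class II transactivator and a relative of NLRC5, did not exceed 0.046 FPKM in any library. HLA-DMA, a class II peptide exchange factor, was 2.53 to 4.22 FPKM in the populations and Clone 3, 8.10 in Clone 1, 11.5 in Clone 4 and 16.2 in Clone 2, and did not pass between clones and resistant populations (log2 difference 1.23, adjusted p = 0.09984 in limma). Of 8 tested class I-like genes and stress ligands 0 passed there. Of these 8, 2 were higher and 6 lower in clones, and FCGRT had the largest difference, 0.925 on the log2 scale (adjusted p = 0.1116 in limma). MICA and MICB, ligands of the NKG2D receptor, differed by -0.78 and -0.75 on the log2 scale (adjusted p = 0.06562 and 0.09905 in limma).

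Genes outside the set with the most similar pattern were found by Pearson correlation of log2(FPKM + 1) over the 8 libraries among protein-coding genes with a mean of at least 5 FPKM. NLRC5 was closest to UBAP2L and ADD1, both at r = 0.99. HLA-B was closest to TOP1 and HOXB2 (both r = 0.94), and HLA-C and B2M were both closest to SLC12A7 (r = 0.93 and 0.94). HLA-E was closest to KIF13A (r = 0.96), HLA-F to RRBP1 (r = 0.96), TAP1 to CYFIP1 (r = 0.95), TAP2 to ABCA3 (r = 0.95) and TAPBP to HTATIP2 (r = 0.96). HLA-C and HLA-F also shared WWTR1 among their 3 closest genes (r = 0.92 and 0.94). These were the highest of the coefficients over all such genes, and they describe these libraries only.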

How the data were processed

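RNeasy Plus Mini columns gave total RNA for 8 KCL-22 libraries made by Illumina protocols, per the labels' protocols. The deposited values are FPKM, made by the authors with TopHat 1.3, Cufflinks 1.3 and GRCh37, per the submitters' processing notes; the header does not name the unit, which was taken from the tool and the values. FPKM of polymorphic HLA genes depends on how reads mapping to several of them were shared, which no source used here states. Depth estimates rest on 586 intronless genes.

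Of 31402 entries, 70 lacked a value and were left out. On log2(FPKM + 1), limma 3.58.1 (R 4.3.3, lmFit, eBayes with trend) fitted all 8 libraries. It used 1 mean per kind (vehicle, resistant populations, clones, with 5 residual degrees of freedom) or per resistance group (4). Tests were two-sided and Benjamini-Hochberg adjusted over 11843 genes. The code was also run on simulated independent libraries with a reduced spread, which does not show how the fit fares with related libraries. Vehicle and Clone 4 were assumed to vary like the replicated groups. Fold changes on this scale understate low genes. Alternatives were pseudocounts, filters, rescaling, variance settings, covariates and leaving out each library; those for GBP2 and NFYA, and population of origin as a block, were chosen after seeing the data. Python 3.11.15, numpy 2.4.6, pandas 2.3.3 and matplotlib 3.10.9 were used. The 9 genes and all lists were chosen with earlier results of these data known. Named were the 9 genes, list genes past the threshold or among the 4 largest per list and contrast, and the 3 most correlated genes each. RFXANK, CIITA and markers of other cell types were named outside this rule, after their values were seen.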

Additional observations from a re-analysis of the deposited data

How the results depend on the processing

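Replicate numbers only name libraries and pair none. A fit with population of origin as a block, added after seeing the data, used 6 libraries, in which 3 clones share the GNF-2 population. The 8 tested genes in 4 contrasts gave 32 log2 differences. Over 528 alternative values 506 kept direction and side of the threshold, 22 changed sign and 0 passed. With all libraries kept, the sign changed for HLA-B between GNF-2-resistant and catalytic-resistant libraries (-0.069 with clone or population as a covariate), and in catalytic-resistant libraries against vehicle for HLA-C (-0.01 with median-ratio rescaling, -0.082 with that covariate) and B2M (-0.11 with quantile normalization).

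Leaving out each library gave these ranges where a sign changed. Between clones and resistant populations B2M lay at -0.017 to 0.43, TAP1 at -0.049 to 0.60 and NLRC5 at -0.53 to 0.10. Between GNF-2-resistant and catalytic-resistant libraries HLA-B lay at -0.81 to 0.71, HLA-C at -1.07 to 0.28, B2M at -0.59 to 0.088, TAP1 at -0.60 to 0.16, TAP2 at -0.28 to 0.13 and NLRC5 at -0.17 to 0.77. HLA-C in catalytic-resistant libraries against vehicle lay at -0.027 to 0.093. In GNF-2-resistant libraries against vehicle HLA-B lay at -0.95 to 0.56, HLA-C at -1.05 to 0.30, HLA-E at -0.57 to 0.066, B2M at -0.48 to 0.20 and TAP1 at -0.41 to 0.35. In the first contrast HLA-B lay at 0.32 to 1.33, HLA-C at 0.074 to 0.98 and HLA-E at -0.67 to -0.051 with no sign change. Most of the sign changes came without Clone 1 or Clone 2.

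Counts of genes called over the whole table moved further, and the causes were not tested. For clones against resistant populations 883 became 120 at an adjusted p of 0.01, 238 with resistance group as a covariate, 11 with population of origin as a block and 128 (without the nilotinib population) to 1086 (without Clone 2) on leaving out 1 library. For GNF-2-resistant against catalytic-resistant libraries 4 became 2 with a mean of at least 5 FPKM, 0 with genes above 0 in all 8 libraries and 1 to 10 without 1 library. For catalytic-resistant libraries against vehicle 4 became 59 with no filter, 2 with a mean of at least 5 FPKM, 0 with genes above 0 in all libraries or at an adjusted p of 0.01, 1 with rescaling, quantile normalization or a robust variance prior, and 0 to 1 without 1 library. For GNF-2-resistant libraries against vehicle 11 became 79 with no filter, 7 with a mean of at least 5 FPKM, 0 with genes above 0 in all libraries, 3 at an adjusted p of 0.01 and 1 to 13 without 1 library. At 1.5-fold, genes apart numbered 914, 1574 and 2519 in the imatinib, nilotinib and GNF-2 populations and 2683, 2706, 3149 and 3033 in Clones 1, 2, 3 and 4. With no filter HLA-F differed by 0.025 between clones and resistant populations (adjusted p = 0.9629 in limma). Without read counts, no interval for counting error could be given.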
